A study of Sus scrofa with 4 samples.

Results

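The cells described here are pig (Sus scrofa) meniscus fibroblasts that carry transcripts of PI16 and MFAP5. Peptidase inhibitor 16 (PI16) is a surface-anchored protein and MFAP5 is a microfibril-associated glycoprotein. A barcode with at least 200 detected genes was taken as such a cell when it held at least 1 PI16 UMI (unique molecular identifier, a count of captured transcripts) and at least 3 UMIs of PI16 and MFAP5 together. It could hold at most 1 UMI of the endothelial genes PECAM1, PLVAP and VWF together, at most 1 of the mural genes MYH11 and RGS5, and at most 2 of the macrophage genes C1QA, C1QB and C1QC. These limits left 766 cells of 27782 barcodes.

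The meniscus is the fibrocartilage pad between femur and tibia, and in textbook anatomy its outer red zone carries vessels while its inner white zone does not. Droplet sequencing of single-cell transcripts (10x Chromium 3' chemistry v3.1) gave 4 libraries, 1 each of the medial and the lateral meniscus and of the red and the white zone. Synovium was removed, and cells were released with pronase followed by collagenase. The labels name no animal, strain, age or treatment, so it is not known whether the libraries come from the same pig, and a difference between libraries has no animal replicate.

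In mouse and human tissues, PI16 marks fibroblasts that sit in the adventitia, the connective tissue sheath around larger vessels, and in the fascia. These fibroblasts are often called universal or progenitor-like fibroblasts and are known for DPP4, CD34, CD55, SEMA3C, CD248 and microfibril genes. MFAP5 and the fibrillin FBN1 form part of the microfibrils on which elastic fibres are laid down, and the secreted Frizzled-related proteins SFRP2 and SFRP4 bind Wnt ligands outside the cell. CD55 and PCOLCE2 were not analysed here. The libraries hold no positions, so a place beside vessels was not measured, and the cells are called PI16 and MFAP5 fibroblasts.

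The cells were found in the red zone libraries only. The medial red library held 646 of them among 6823 barcodes (9.47%, exact 95% binomial interval 8.78 to 10.2), and the lateral red library held 120 among 5715 (2.10%, 1.74 to 2.51). The medial white library held 0 of 7807, which allows a share of up to 0.0384%, and the lateral white library 0 of 7382, which allows up to 0.0406%, at 3 cells each. These intervals and limits cover counting error only, and PI16 chose the cells, so the shares are a description. In a dissociated sample a smaller share of a cell type and a lower release of it from the tissue cannot be told apart.

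The white zone libraries were not shallower. Over all barcodes, PI16 gave 3374 UMIs in the medial red, 490 in the lateral red, 3 in the medial white and 0 in the lateral white library, where the libraries held 11878284, 9666319, 14902274 and 13719381 UMIs in that order. MFAP5 gave 3665, 1471, 5 and 3 UMIs in the same order. Median UMIs per barcode were between 1472 and 1617 in the 4 libraries. A further 60 barcodes in the medial red and 8 in the lateral red library met the PI16 and MFAP5 minimum and exceeded a vascular, mural or C1Q limit. Pairs of libraries shared 10 to 20 barcode sequences. The medial red and lateral red libraries shared 11, none of them a PI16 and MFAP5 fibroblast in both.

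**Figure D1:**
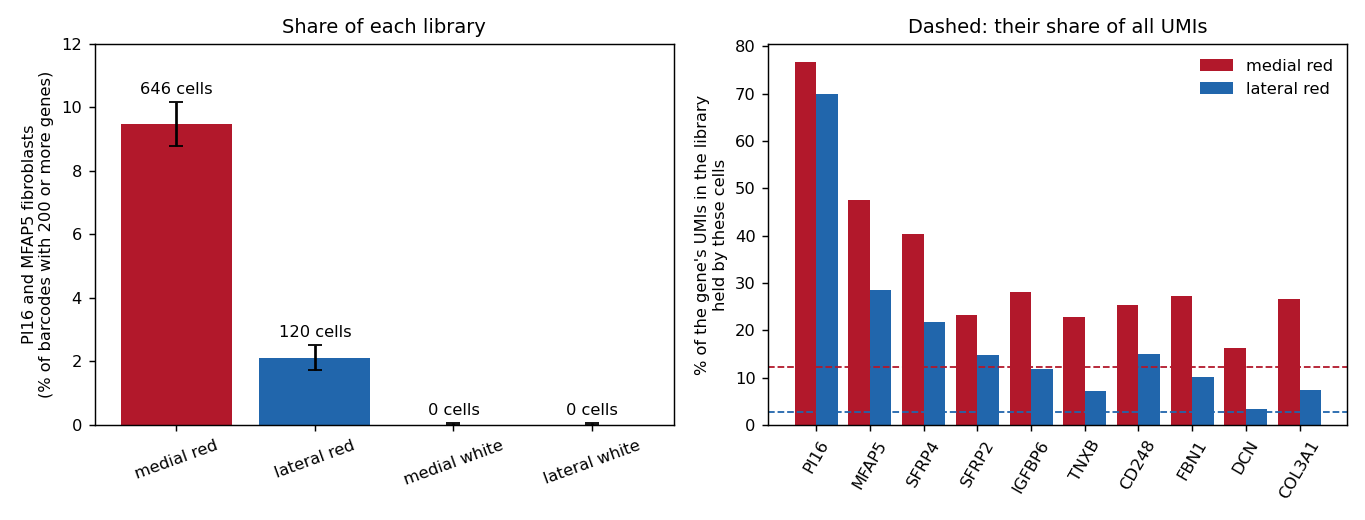
Left, PI16 and MFAP5 fibroblasts as a percent of barcodes with at least 200 genes in each library, with exact 95% binomial intervals and cell numbers (646, 120, 0 and 0). Right, the percent of each gene's UMIs in the 2 red zone libraries that these cells hold, with dashed lines at their share of all UMIs of the library (12.2% and 2.67%).

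The PI16 gene (ENSSSCG00000001570) lies on chromosome 7 at 32600952 to 32613505, MFAP5 (ENSSSCG00000031712) on chromosome 5 at 62742520 to 62757522 and SFRP4 (ENSSSCG00000035299) on chromosome 9 at 108404314 to 108414335 of the pig build Sscrofa11.1, in the RefSeq annotation. The 646 medial cells held 2587 PI16 UMIs, 76.7% of the library's, and the 120 lateral cells 343, or 70.0%. MFAP5 was spread more widely, since the same cells held 47.5% of its UMIs in the medial and 28.4% in the lateral red library. A cell had a median of 3 PI16 UMIs in the medial library (highest 38) and of 2 in the lateral library (highest 12). MFAP5 had a median of 2 (highest 20) and 3 (highest 13), and 82.2% of medial and 89.2% of lateral cells held a UMI of it. PI16 without any MFAP5 chose 115 medial and 13 lateral cells.

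The cut at 3 UMIs falls within a continuous range. At exactly 3 UMIs lay 157 medial and 28 lateral cells, and just outside it, with PI16 and 2 UMIs in all, lay 174 and 43 barcodes. In the medial library SFRP4 was at 561 CPM (UMIs of the gene per 1000000 UMIs of the summed cells) in the cells at 3 UMIs and at 633 CPM in those just outside. In the lateral library it was at 188 and 280 CPM. A further 179 medial and 119 lateral barcodes had at least 3 MFAP5 UMIs and no PI16. In these SFRP4 stood at 1499.9 CPM (medial) and 133 CPM (lateral), against 1174 and 329 CPM in all chosen cells. At full depth 41.3% and 15.1% of them held an SFRP4 UMI, against 48.0% and 34.2% of all chosen cells. In the medial library cells with MFAP5 and no detected PI16 were thus not lower in summed SFRP4, but a smaller share held it. In the lateral library both values were lower.

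A pair of comparison groups were taken from the same red zone libraries with the same vascular, mural and C1Q limits, no PTPRC and no PI16 or MFAP5. Other fibroblasts held at least 3 UMIs of DCN and LUM (1721 medial and 1854 lateral barcodes). This gate did not leave out cells with cartilage transcripts. Of these barcodes, 886 medial and 613 lateral held no UMI of 11 cartilage genes. In the white zone the same gate took 85.1% of medial and 85.5% of lateral barcodes. CXCL14 and CXCL12 fibroblasts held at least 3 UMIs of those chemokines (628 and 470), with no DCN or LUM required, and 433 and 309 barcodes belonged to both groups. PI16 and MFAP5 fibroblasts were deeper, with median UMIs of 2027.5 in the medial and 1938.5 in the lateral library, against 1491 and 1723 in other fibroblasts and 1524 and 1561.5 in CXCL14 and CXCL12 fibroblasts. Shares of cells with a UMI are therefore given after thinning each cell to 1000 UMIs.

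Of the markers with which the cells were proposed, SFRP4 was not used by the gate. After thinning, 35.0% of PI16 and MFAP5 fibroblasts of the medial and 19.6% of the lateral red library held SFRP4, against 5.96% and 1.58% of other fibroblasts and 6.34% and 3.44% of CXCL14 and CXCL12 fibroblasts. Before thinning the shares were 48.0% and 34.2%, against 7.84% and 2.54% of other fibroblasts. Barcodes with at least 10 C1Q UMIs, which should lack SFRP4 and show the level of free RNA, held it in 0.503% and 0.285% of thinned cells, at median depths of 1391 and 1453 UMIs before thinning. The share of cells with SFRP4 was thus above this background in both libraries.

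Of the surface markers of universal fibroblasts, DPP4, CD34 and CD248 were sparse and THY1 was not. THY1 was held by 44.2% of medial and 60.7% of lateral thinned PI16 and MFAP5 fibroblasts, against 38.0% and 35.1% of other fibroblasts. Its intervals overlapped in the medial library. DPP4, a dipeptidyl peptidase, gave 15 UMIs in the medial and 6 in the lateral cells, and 0.853% and 1.79% of thinned cells held it, against 0.142% and 0.425% of other fibroblasts. The exact intervals of DPP4 overlapped in both libraries. CD34, a sialomucin also made by endothelium, was held by 10.4% and 8.93% of thinned PI16 and MFAP5 fibroblasts, against 4.12% and 2.31% of other fibroblasts, while barcodes with at least 5 endothelial UMIs held it in 18.5% and 17.1%. CD248 (endosialin) was held by 8.02% and 9.82%, against 3.83% and 1.52% of other fibroblasts. CXCL14 and CXCL12 fibroblasts held CD248 in 7.33% and 4.23%, with intervals that overlapped those of PI16 and MFAP5 fibroblasts in both libraries. IGFBP6, an IGF-binding protein common in fascia and adventitia, was held by 80.9% and 85.7%, against 60.5% and 61.6%. TNXB (tenascin X) was held by 56.8% and 57.1%, against 38.0% and 38.2%. CLEC3B (tetranectin) went the other way, with 66.0% and 64.3%, against 79.3% and 78.3% of other fibroblasts. SEMA3C was held by 20.6% and 29.5%, against 21.6% and 23.3%, with overlapping intervals in both libraries.

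**Figure D2:**
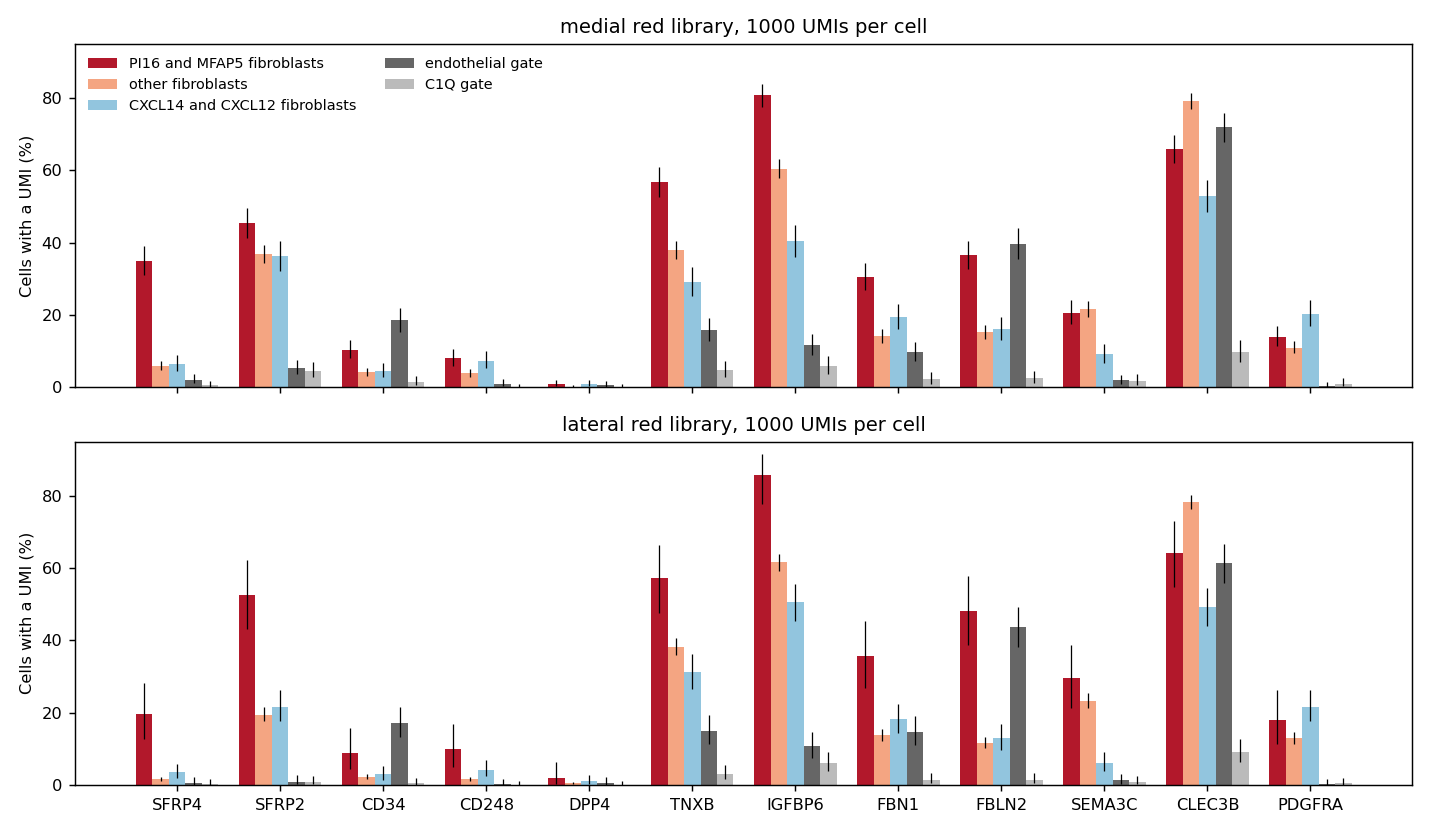
Percent of cells with at least 1 UMI of each gene after thinning to 1000 UMIs, in the medial red (top) and lateral red (bottom) library, with exact 95% binomial intervals. SFRP4 is held by 35.0% and 19.6% of PI16 and MFAP5 fibroblasts and by under 7% of every other group shown, while DPP4 is near 0 in all groups.

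Some matrix genes had higher and others lower levels in cells with more PI16 and MFAP5 UMIs. Barcodes within the 3 limits were binned at 0, 1 to 2, 3 to 5, 6 to 10 and over 10 UMIs of both genes. The bins required no fibroblast gene and no PI16, so they can differ in cell type. The bin of 0 held 2864 medial and 3113 lateral barcodes. COL2A1 stood there at 153 and 553 CPM, against 3.38 and 0 CPM in the highest bin. In the medial library SFRP4 stood at 103, 627, 728, 1819 and 2154 CPM across the bins. In the lateral library it stood at 24.8, 105, 184, 334 and 268 CPM, where the last bin holds only 18 cells and 14 SFRP4 UMIs. SFRP4 was therefore highest in the 2 upper bins of each library.

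FBN1 had 148, 265, 275, 423 and 615 CPM in the medial bins and 124, 329, 341, 517 and 1206 CPM in the lateral bins. COL3A1, the type III collagen of compliant tissues, had 10372 CPM in the lowest and 27101 CPM in the highest medial bin, and 9562 and 22846 CPM in the lateral library. IGFBP6 had 1377 and 4331 CPM in the lowest and highest medial bins, and 1544 and 12064 CPM in the lateral ones. These 3 genes had their highest level in the highest bin of both libraries. Other matrix genes did not: the proteoglycan DCN had 5061 CPM in the lowest and 3946 CPM in the highest medial bin, and 5364 and 3600 CPM in the lateral ones. COL1A1 had 31690 and 36403 CPM in the medial bins, and 29091 and 23899 CPM in the lateral ones. ACAN had 242 and 551 CPM in the medial bins, and 365 and 191 CPM in the lateral ones, so the libraries differed in direction for both.

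CXCL14 took another course. It had 1108, 1779, 1088, 481 and 382 CPM across the medial bins and 664, 2216, 1443, 819 and 651 CPM across the lateral ones. Its highest level was in cells with 1 or 2 PI16 and MFAP5 UMIs in both libraries. SFRP2 differed between libraries: 1115, 2083, 1833, 1470 and 761 CPM in the medial bins, against 476, 1510, 1603, 2633 and 3236 CPM in the lateral bins. Median depth also differed across the bins, at 1314 UMIs per cell in the lowest and 2331.5 in the highest medial bin. The part of depth and of cell type in these levels was not tested.

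**Figure D3:**
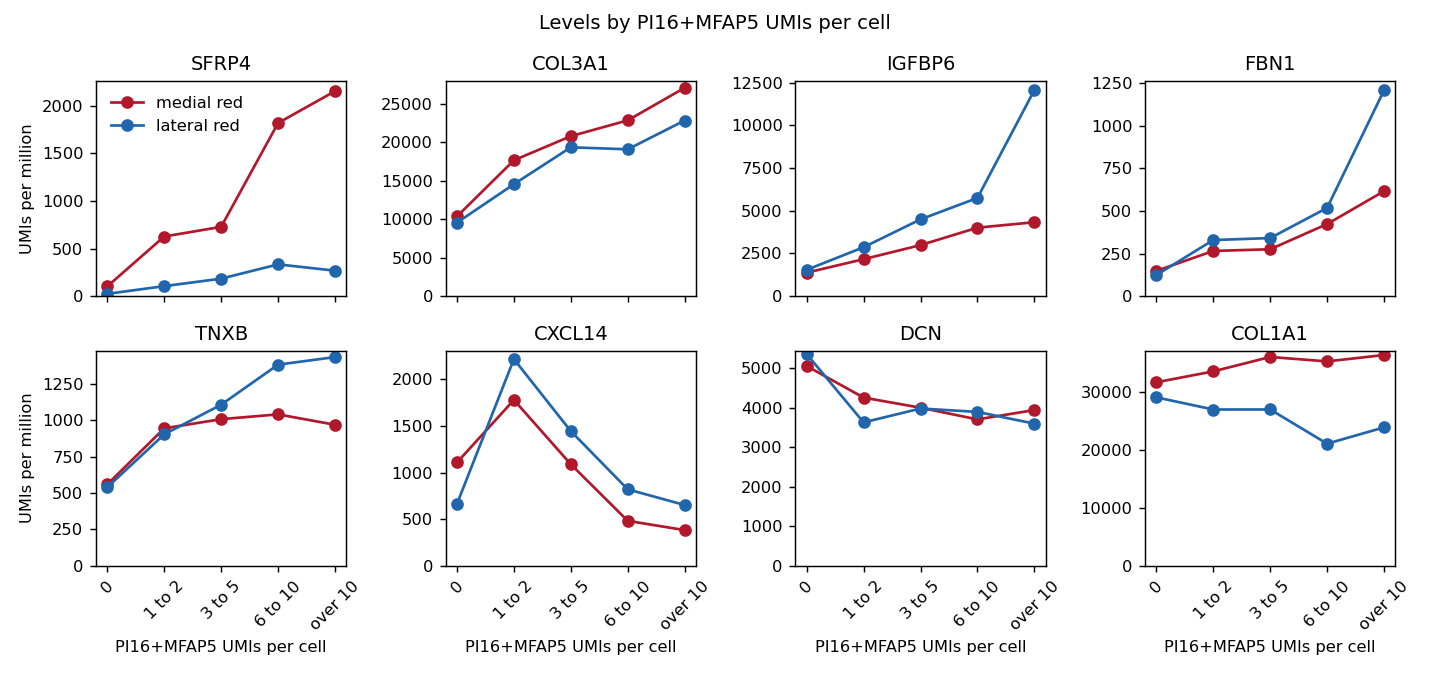
CPM of 8 genes in barcodes grouped by their PI16 and MFAP5 UMIs (bins 0, 1 to 2, 3 to 5, 6 to 10, over 10), 1 line per red zone library. SFRP4, COL3A1, IGFBP6 and FBN1 are lowest in the bin of 0, while CXCL14 is highest in the bin of 1 to 2; the last lateral bin holds 18 cells.

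Some cells carried the marker pair of another fibroblast state. At least 3 UMIs of CXCL14 and CXCL12 were held by 207 of 646 medial cells (32.0%) and 33 of 120 lateral cells (27.5%). Other fibroblasts held them in 25.2% and 16.7%. The shares in this paragraph are not thinned, and PI16 and MFAP5 fibroblasts were deeper. KERA and MYOC, genes of tendon-like cells, reached 3 UMIs in 40 medial (6.19%) and 6 lateral cells (5.00%), against 12.1% and 6.53% of other fibroblasts. CILP with OMD, genes of fibrochondrocytes, reached it in 32 (4.95%) and 5 (4.17%), against 1.92% and 3.24%. COL2A1, the main collagen of cartilage, reached it in 1 and 0 cells, against 1.10% and 2.97% of other fibroblasts. WIF1 with ENPP2 reached it in 0 and 0, against 0.116% and 1.29%.

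Against other fibroblasts, PI16 and MFAP5 fibroblasts carried more of several adventitial and adhesion genes, such as FBN1, FBLN2, POSTN and FN1, and fewer chondrocyte transcripts. Of 8945 genes tested outside the gate, 356 passed (3.98%), 144 of them higher (1.61%) and 212 lower (2.37%), with edgeR's quasi-likelihood test and Benjamini-Hochberg adjustment at 0.05. Without TMM scaling, which moved the median of all genes by 0.19 on the log2 scale, 131 were higher and 96 lower. The test compared 4 sums, 2 gates in each of 2 red libraries, with the library as a block and 1 residual degree of freedom, so most of the spread behind its p-values is borrowed across genes. DESeq2 called 145 genes, 57 higher and 88 lower. The summed level of 13 chondrocyte markers was 692 CPM in medial and 596 CPM in lateral PI16 and MFAP5 fibroblasts, against 1587 and 2789 CPM in other fibroblasts. Leaving out barcodes with a UMI of 11 cartilage genes, a choice made after the data were seen, took 1721 medial and 1854 lateral other fibroblasts to 886 and 613 and gave 422 calls, 166 of them among the 356.

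SFRP4 stood at 1174 CPM in medial and 329 CPM in lateral PI16 and MFAP5 fibroblasts, against 118 and 21.1 CPM in other fibroblasts of the same libraries, a log2 fold change of 3.36 ± 0.20 (SE). Its level differed between the libraries in both cell groups. As SFRP4 was among the genes that proposed these cells, its fold is a description with no test.

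Of the 15 genes with the largest rise, MAP1LC3C and TNN had the highest folds, and both were low in other fibroblasts. TNN (tenascin N) stood at 76.7 CPM in medial and 139 CPM in lateral PI16 and MFAP5 fibroblasts, against 6.21 and 7.34 CPM in other fibroblasts (log2 fold change 3.71 ± 0.28 SE, edgeR adjusted p = 5.74e-06). POSTN (periostin, which binds collagen and integrins) stood at 1412 and 3381 CPM, against 476 and 444 CPM (2.03 ± 0.24, edgeR adjusted p = 0.000306). ASPN (asporin, a leucine-rich proteoglycan) stood at 1398 and 1799 CPM, against 294 and 551 CPM (1.77 ± 0.19, edgeR adjusted p = 0.000147). For all 3 genes both libraries of PI16 and MFAP5 fibroblasts were above both of the other fibroblasts.

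LOXL2, a lysyl oxidase that cross-links collagen, stood at 274 and 248 CPM, against 64.3 and 66.9 CPM in other fibroblasts (log2 fold change 1.80 ± 0.19). CTHRC1, a secreted protein with a collagen repeat, stood at 334 and 627 CPM, against 120 and 119 CPM (1.70 ± 0.20), and SPON2 (spondin 2) at 818 and 650 CPM, against 163 and 156 CPM (1.99 ± 0.18). C1QTNF3, a secreted C1q/TNF-related protein, stood at 506 and 572 CPM, against 96.1 and 83.9 CPM (2.36 ± 0.17). The remaining named genes that rose were MAP1LC3C, of the autophagy LC3 family, at 3.72 ± 0.34, the collagen COL28A1 at 2.20 ± 0.29, the BMP antagonist CHRDL1 at 2.14 ± 0.37, the Dickkopf protein DKK3 at 1.91 ± 0.19, the glycosyltransferase GALNT16 at 1.70 ± 0.27 and the Wnt pathway regulator DACT1 at 1.66 ± 0.29. With SFRP4 and CRABP2 these are the 15 genes with the largest folds, higher in both libraries, and 13 passed under every alternative that gave a value. COL28A1 (edgeR adjusted p = 0.0791 without the library block) and DACT1 (DESeq2 adjusted p = 0.0597) did not. SFRP4 is counted in the 13, although its fold is a description with no test.

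The cellular retinoic acid-binding genes changed in opposite directions. CRABP2, which delivers retinoic acid to its nuclear receptor, stood at 557 CPM in medial and 425 CPM in lateral PI16 and MFAP5 fibroblasts, against 111 and 62.8 CPM in other fibroblasts (log2 fold change 2.31 ± 0.18, edgeR adjusted p = 6.01e-06). CRABP1, the other cellular retinoic acid-binding protein, fell to 583 and 530 CPM, against 2524 and 1917 CPM in other fibroblasts (-2.21 ± 0.17, edgeR adjusted p = 6.93e-06).

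Of 24 tested genes of the adventitial and universal fibroblast list, 8 rose and 1 fell, and 18 had a positive fold. The list's median log2 fold was 0.78, against -0.01 over all genes tested. FBLN2 (fibulin 2) stood at 496 and 719 CPM, against 192 and 144 CPM (1.61 ± 0.20), and FBN1 at 415 and 584 CPM, against 174 and 149 CPM (1.38 ± 0.18). IGFBP6 stood at 3386 and 6359 CPM, against 1849 and 2187 CPM (0.99 ± 0.18). CD248, ADGRD1, GFPT2, PAMR1 and SFRP4 made up the 8, where SFRP4 had helped to propose the cells, and LIMCH1 fell. Without the barcodes of cartilage genes 7 rose and 1 fell, with a median of 0.37.

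Several textbook members of that list did not pass. SFRP2 stood at 1877 CPM in medial and 2812 CPM in lateral cells, against 1512 and 668 CPM in other fibroblasts (log2 fold change 0.96 ± 0.29, edgeR adjusted p = 0.0924), with most of the difference in the lateral library. TNXB had a log2 fold change of 0.57 (adjusted p = 0.0756), CD34 of 0.86 (0.0557) and DPP4 of 1.83 (0.0728, from 21 UMIs against 29). SEMA3C (-0.12), CLEC3B (-0.58), PDGFRA (0.21) and THY1 (0.35) had adjusted p between 0.113 and 0.834. Without the barcodes of cartilage genes, SEMA3C stood at 0.59 with an adjusted p of 0.00494.

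Of 20 tested microfibril and elastic fibre genes 3 rose (FBN1, FBLN2 and EMILIN2) and none fell, and the median was 0.25. Of 19 tested genes of the collagen list none rose and COL1A2 fell. COL1A2 had 36123 and 26580 CPM against 50836 and 50842 CPM in other fibroblasts (-0.93 ± 0.21), but stood at 0.02 without the barcodes of cartilage genes. Without those barcodes 5 genes of the list rose and 1 fell. Without TMM scaling 3 rose and 2 fell, and with DESeq2 none rose and 1 fell. COL3A1 had 23379 and 22055 CPM, against 13489 and 13384 CPM (0.54 ± 0.18, adjusted p = 0.146), higher in both libraries without passing. COL1A1 had -0.48 ± 0.19 (adjusted p = 0.248) and COL15A1 -0.39 (0.456). Among 29 adhesion genes 7 rose, among them FN1 (fibronectin) with 4086 and 5690 CPM against 1511 and 1590 CPM, and the collagen-binding integrin ITGA11, and 2 fell. Among 31 proteases and inhibitors 7 rose, including HTRA3 and SERPINE2, and MMP3 and MMP13 fell.

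Wnt and BMP modulators were split. DKK3 and SFRP4 were higher, while FRZB (SFRP3) with 33.2 and 23.2 CPM against 117 and 168 CPM, WIF1 and RSPO2 fell, among 18 Wnt modulators tested. WIF1 had 1 UMI in all PI16 and MFAP5 fibroblasts against 148 in other fibroblasts. Of the BMP antagonists, CHRDL1 rose and GREM1 fell, and GREM1 had 4 UMIs against 320. FRZB had a fold of 0.43 without the barcodes of cartilage genes (adjusted p = 0.669).

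Chondrocyte markers fell. COL2A1 stood at 7.60 CPM in medial and 15.5 CPM in lateral PI16 and MFAP5 fibroblasts, against 221 and 801 CPM in other fibroblasts (log2 fold change -5.35 ± 0.28, edgeR adjusted p = 3.59e-07). CILP2, a cartilage intermediate layer protein, stood at 64.3 and 65.8 CPM, against 894 and 1283 CPM (-4.15 ± 0.22), and the link protein HAPLN1 had -4.15 ± 0.24. Of 9 tested chondrocyte markers 8 fell and none rose, with a median of -4.15. ACAN (aggrecan) had -0.46 ± 0.26 (adjusted p = 0.455) and COMP -0.42 ± 0.22 (0.412), and without the barcodes of cartilage genes both were higher, at 1.27 and 0.68.

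HPS5 was abundant and fell, with 1070 and 3810 CPM against 31222 and 50183 CPM in other fibroblasts (-4.51 ± 0.26, edgeR adjusted p = 5.77e-07). HPS5 encodes part of a complex for lysosome-related organelles, and in the RefSeq annotation it lies next to the serum amyloid A genes; which gene gave these reads was not tested. LBP, the lipopolysaccharide-binding protein of the acute phase, had 1 UMI in PI16 and MFAP5 fibroblasts and 340 in other fibroblasts, a ratio of 0.0106 (exact 95% counting interval 0.000267 to 0.0594). The other named genes that fell were SCRG1 (-4.52), STC2 (-4.21), ANGPTL7 (-3.72), FIBIN (-3.48), CCDC3 (-3.45), PCP4 (-3.42), MYOC (-3.25), ADIRF (-2.82) and NDUFA4L2 (-2.79). Of the 15 named, 14 passed under every alternative that gave a value, and SCRG1 did not with DESeq2 (adjusted p = 0.0814). Without the barcodes of cartilage genes, LBP, COL2A1, SCRG1, GREM1, CILP2 and HAPLN1 were not tested.

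Among 48 tested transcription factors 12 fell and GATA6 rose. GATA6 stood at 20.04 and 15.5 CPM, against 4.75 and 1.47 CPM in other fibroblasts (log2 fold change 2.18 ± 0.49, edgeR adjusted p = 0.026). The 12 included the chondrogenic factors SOX5, SOX6 and SOX9, the tendon factor MKX, the limb factor PITX1 and the homeobox genes HOXA9, HOXA10, HOXA11 and HOXD9. DESeq2 called 3 lower and none higher. Among 21 immediate early genes, which respond within minutes to stress and dissociation, 6 fell and none rose, and their median was -0.37.

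**Figure D4:**
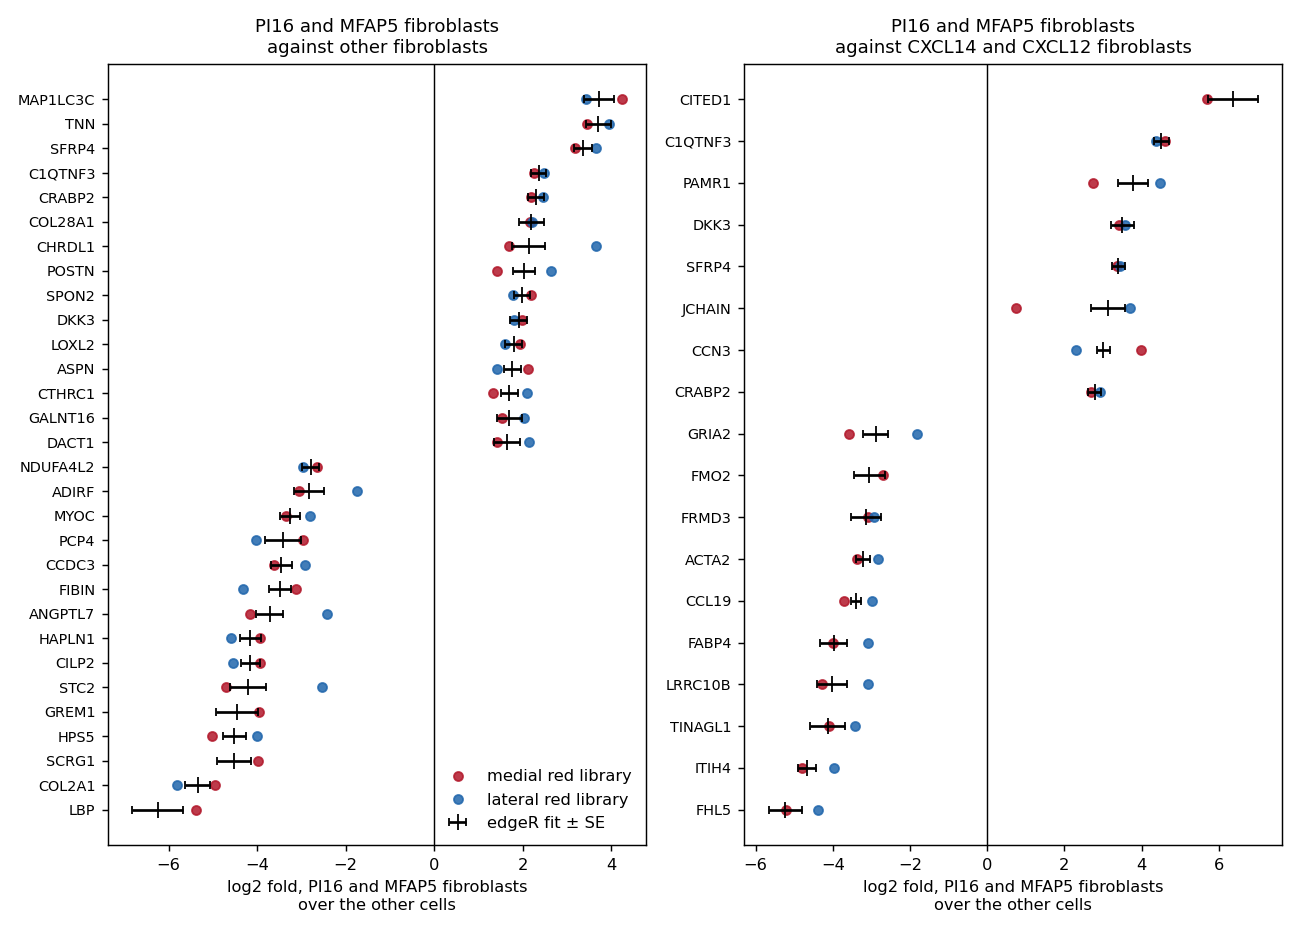
Log2 fold changes of the named genes in PI16 and MFAP5 fibroblasts over other fibroblasts (left, 15 largest per direction) and over CXCL14 and CXCL12 fibroblasts (right, 10 largest per direction, without TNN and MAP1LC3C, which had 0 UMIs there). Points give each red zone library where both groups held UMIs and black bars the edgeR estimate ± SE; every gene shown lies on the same side of 0 in both libraries.

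Against CXCL14 and CXCL12 fibroblasts, the PI16 and MFAP5 fibroblasts carried more collagen, leucine-rich proteoglycan and microfibril transcripts. They carried fewer chemokine, complement, immediate early and mural transcripts. The comparison cells were chosen for chemokine UMIs, and of the chemokines only CXCL14 and CXCL12 were left out of the test. How far that choice sets the difference in other chemokines was not tested. Of 7307 genes tested, 1302 passed (17.8%), 619 higher (8.47%) and 683 lower (9.35%). In this fit edgeR used the pooled spread for all genes, which makes single p-values very small, and DESeq2 called 197 genes, 99 higher and 98 lower. Mural markers moved with this comparison: the summed level of 12 of them was 570 and 588 CPM in PI16 and MFAP5 fibroblasts, against 1418 and 2056 CPM in CXCL14 and CXCL12 fibroblasts, and without barcodes of mural genes, chosen after the data were seen, 779 genes passed, 664 of them among the 1302. The PI16 and MFAP5 fibroblasts are the same sums as in the comparison with other fibroblasts.

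TNN had 147 UMIs in PI16 and MFAP5 fibroblasts and 0 in CXCL14 and CXCL12 fibroblasts, at least 52.5-fold higher at a floor of 3 counts over the group. MAP1LC3C had 85 against 0, at least 30.3-fold higher, and the transcriptional coactivator CITED1 116 against 1, a ratio of 124 (exact 95% interval 21.9 to 4949). C1QTNF3 stood at 506 CPM in medial and 572 CPM in lateral PI16 and MFAP5 fibroblasts, against 20.4 and 27.6 CPM (log2 fold change 4.51 ± 0.19, DESeq2 adjusted p = 8.64e-35). TNN and MAP1LC3C were not absent from other fibroblasts, which held 42 and 30 UMIs of them.

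DKK3 had a log2 fold change of 3.50 ± 0.30, PAMR1 of 3.78 ± 0.40, CRABP2 of 2.78 ± 0.17 and the matricellular CCN3 of 3.01 ± 0.16. SFRP4 stood at 1174 and 329 CPM, against 114 and 30.1 CPM (3.40 ± 0.17, with no test). JCHAIN, the joining chain of plasma cell immunoglobulins, had 39 of its 49 UMIs in the lateral cells, and its fold was 0.74 in the medial and 3.70 in the lateral library. TNN (DESeq2 adjusted p = 0.215) and JCHAIN (edgeR adjusted p = 0.233 without the library block) did not pass under every alternative. JCHAIN had a value in only 6 alternatives, against 10 for TNN. The 8 other named genes that rose passed under every alternative that gave a value. SFRP4 is counted in these 8, although its fold is a description with no test.

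Of 23 tested adventitial and universal fibroblast genes 15 rose, SFRP4 among them although it had helped to propose the cells, and EFEMP1 fell, with a median log2 fold of 0.80 against 0.01 over all genes, and DESeq2 called 8 higher and none lower. TNXB stood at 1043 and 1319 CPM, against 439 and 484 CPM (1.35 ± 0.14), and SEMA3C at 278 and 414 CPM, against 127 and 85.3 CPM (1.61 ± 0.16). IGFBP6 stood at 3386 and 6359 CPM, against 913 and 1389 CPM (2.05 ± 0.12). SFRP2 rose by 1.14 ± 0.13, more in the lateral (1.87) than in the medial library (0.44). CLEC3B, counted among the 15, had a fold of -0.02 in the medial and 0.73 in the lateral library. DPP4 had 0.57 ± 0.52 (adjusted p = 0.521). CD34 passed at 0.72 ± 0.25 (adjusted p = 0.028) and CD248 at 0.80 ± 0.23 (0.00575), with DESeq2 adjusted p of 0.564 and 0.357.

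Of 20 collagens tested 12 rose, and the 5 that fell were the basement membrane genes COL4A1, COL4A2 and COL18A1 and also COL5A3 and COL6A5. COL1A1 stood at 37370 CPM in medial and 31964 CPM in lateral PI16 and MFAP5 fibroblasts, against 17496 and 13452 CPM (1.18 ± 0.08), and COL3A1 at 23379 and 22055 CPM, against 12199 and 8798 CPM (1.14 ± 0.09). COL12A1, a collagen on the fibril surface, stood at 996 and 735 CPM, against 231 and 298 CPM (1.74 ± 0.15). COL4A1 fell to 146 and 193 CPM, against 316 and 539 CPM, and COL18A1 to 13.8 and 30.9 CPM, against 90.3 and 167 CPM. All 9 leucine-rich proteoglycans tested rose, with a median of 1.08, among them BGN (biglycan, 0.84 ± 0.11) and ASPN (1.78 ± 0.14), and DESeq2 called 8.

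Of 21 collagen-processing genes 13 rose and none fell, among them LOX with 803 and 700 CPM against 267 and 213 CPM, LOXL2 and the collagen chaperone SERPINH1. Of 18 microfibril and elastic fibre genes 11 rose, including FBN1, FBLN2 and MFAP4, and EFEMP1 and EMILIN1 fell. Of 4 chondrocyte markers tested 2 rose (ACAN and COL11A1) and HAPLN1 fell by 1.24 (DESeq2 adjusted p = 0.243), with a median of 0.09. ACAN stood at 374 and 267 CPM, against 36.9 and 65.2 CPM (2.76 ± 0.19), and COMP at 3482 and 4614 CPM, against 1066 and 3410 CPM (1.08 ± 0.12, DESeq2 adjusted p = 0.404). COMP differed mostly in the medial library, with a fold of 1.72 there and 0.45 in the lateral one.

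Inflammatory and stress-linked genes were lower. CCL19, a chemokine that draws CCR7-bearing cells, stood at 267 CPM in medial and 340 CPM in lateral PI16 and MFAP5 fibroblasts, against 3539 and 2742 CPM in CXCL14 and CXCL12 fibroblasts (-3.40 ± 0.14, DESeq2 adjusted p = 1.59e-45). IL6 stood at 38.7 and 73.5 CPM, against 201 and 450 CPM (-2.45 ± 0.19), and APOE at 265 and 367 CPM, against 1930 and 2765 CPM (-2.88 ± 0.14). Of 13 chemokines and cytokines 7 fell and none rose, of 20 immediate early genes 13 fell and none rose, and of 11 complement genes 5 fell and 1 rose. DESeq2 called 4, 3 and 2 of these lower. CFD, counted among the complement genes that fell, had a fold of -1.29 in the medial and 0.52 in the lateral library. Of 18 ribosomal protein genes 11 fell and none rose, by 0.33 to 0.53, and none passed with DESeq2 or without the library block.

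Mural genes were prominent among the decreases. ACTA2, the smooth muscle actin, stood at 44.2 and 81.2 CPM, against 469 and 596 CPM (-3.21 ± 0.18), and of 10 mural markers tested 9 fell and CSPG4 rose. TAGLN, an actin-binding muscle protein, fell by 0.96, but without barcodes of mural genes it was higher by 1.19. The other named genes that fell were FHL5 (-5.23), the protease inhibitor family member ITIH4 (-4.67), TINAGL1 (-4.14), LRRC10B (-4.02), the fatty acid carrier FABP4 (-3.98), FRMD3 (-3.14), FMO2 (-3.05) and the glutamate receptor subunit GRIA2 (-2.88). All 10 named genes that fell passed under every alternative that gave a value. Leaving out mural barcodes took the CXCL14 and CXCL12 fibroblasts from 628 medial and 470 lateral barcodes to 469 and 337. Of the 10 named genes only CCL19 and GRIA2 then had enough counts to be tested. For the others, a fall apart from mural barcodes was not tested.

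Medial and lateral PI16 and MFAP5 fibroblasts were each in 1 library, so their difference has no replicate check and no test. Of 3940 genes with at least 50 UMIs over both, 197 differed by 2-fold or more (5%), 105 higher in medial (2.66%) and 92 lower (2.34%). With TMM in place of library totals the split was 179 higher and 57 lower. The lateral cells held 258538 UMIs in all against 1447373 in the medial cells, and the intervals given are exact 95% counting intervals.

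SFRP4 stood at 1174 CPM in medial (1119 to 1231) and 329 CPM in lateral cells (263 to 407), a ratio of 3.57 (2.87 to 4.49). The same ratio in other fibroblasts was 5.57 (4.30 to 7.30), so the higher medial SFRP4 was seen outside these cells too. CPZ, a carboxypeptidase that binds Wnt proteins, had 206 CPM in medial and 54.2 CPM in lateral cells, a ratio of 3.80 (2.23 to 7.04), and 1.69 in other fibroblasts. MGP (matrix Gla protein, an inhibitor of calcification) had 12800.4 and 6076 CPM, a ratio of 2.11 (2.00 to 2.22), and 1.92 in other fibroblasts. NFATC2 had a ratio of 2.34 (1.36 to 4.36) against 0.750 in other fibroblasts, and PLP2 one of 2.24 (1.56 to 3.32) against 1.01. The other named genes with a higher medial level were C2, DNASE1L1, PDPN, YIPF3 and CLEC11A, with ratios between 1.97 and 2.61.

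SFRP1, also a Frizzled-related protein, went the other way, with 33.2 CPM in medial and 170 CPM in lateral cells, a ratio of 0.195 (0.127 to 0.300), and 0.301 in other fibroblasts. SPP1 (osteopontin) had 72.5 and 240 CPM, a ratio of 0.303 (0.219 to 0.421), against 0.980 in other fibroblasts. The MHC class II gene SLA-DQB1 had a ratio of 0.262 (0.164 to 0.425), against 1.11, and PAMR1 one of 0.275 (0.181 to 0.422), against 0.705. HPS5 had a ratio of 0.281 and CLU one of 0.376, against 0.622 and 0.577 in other fibroblasts, and ATP1B1, SIK1, PTHLH and ECRG4 lay between 0.326 and 0.365.

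Of 22 adventitial genes with at least 50 UMIs, SFRP4 was over 2-fold higher in medial cells and GFPT2 and PAMR1 over 2-fold lower. The median log2 ratio of the 22 was -0.49, against -0.09 over all 3940. IGFBP6 had 3386 and 6359 CPM, a ratio of 0.533 (0.504 to 0.563), and in other fibroblasts 0.845. SFRP2 had 1877 and 2812 CPM, a ratio of 0.668 (0.615 to 0.726), where other fibroblasts had 2.26. The gate genes had ratios of 1.35 for PI16 and 0.744 for MFAP5, which the gate itself shapes. COL1A1 (1.17) and COL3A1 (1.06) differed little.

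**Figure D5:**
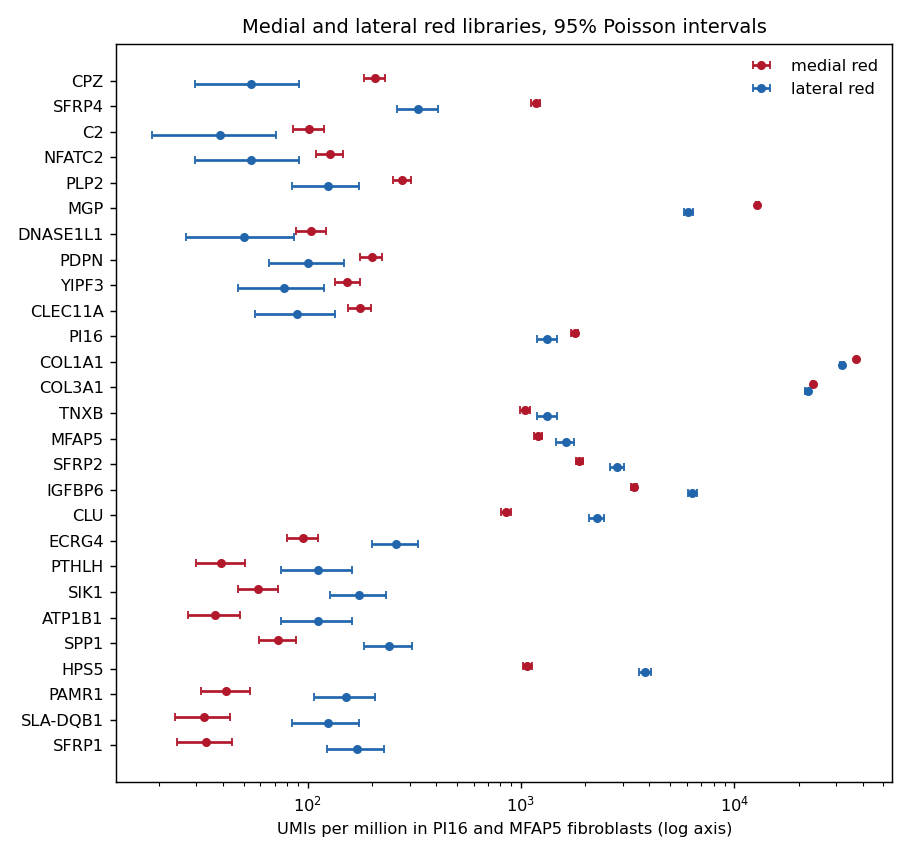
CPM (log axis) in medial and lateral PI16 and MFAP5 fibroblasts, with exact 95% Poisson intervals, for the named genes and 7 fixed genes, ordered by ratio. CPZ and SFRP4 are at the top with ratios of 3.80 and 3.57, and SFRP1 is at the bottom with 0.195.

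Marker lists of other cell types differed in level. Fibrochondrocyte markers summed to 6192 CPM in medial and 7163 CPM in lateral PI16 and MFAP5 fibroblasts, against 8617 and 14150 CPM in other fibroblasts and 4005 and 6517 CPM over all barcodes of the libraries. Tendon-like markers summed to 2190 and 2499 CPM, against 3402 and 3272 CPM in other fibroblasts and 1520 and 1512 CPM over all barcodes. Both sums thus stood above the library and below other fibroblasts, but each was led by a single gene. COMP gave 3482 and 4614 CPM of the fibrochondrocyte sum in PI16 and MFAP5 fibroblasts, against 1709 and 3410 CPM over all barcodes. THBS4 gave 1834 and 2158 CPM of the tendon-like sum, against 1082 and 1206 CPM over all barcodes. The lists without these genes were not compared. Endothelial and macrophage transcripts were limited by the gate itself, so their low levels are no finding. Of 12 endothelial markers 11 had UMIs in the medial cells and 8 in the lateral cells, with summed levels of 35.2 and 42.5 CPM, against 957 and 635 CPM over all barcodes of the same libraries. Of 11 myeloid markers 10 and 6 had UMIs, at 69.8 and 112 CPM, against 915 and 1100 CPM. Mural markers were led by TAGLN, at 433 and 371 CPM, while DES was at 0 in both libraries. TAGLN was also among the genes that rose against other fibroblasts, by 1.35 ± 0.18.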

How the data were processed

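The values are deposited UMI counts for each gene in each barcode, with Cell Ranger 6.1.2 and the build Sscrofa11.1 named in the submitters' processing notes. Of 21280 features 14811 had a symbol in the files, 688 were named from a reference table and the rest kept identifiers. Cells were chosen by the UMI limits given above, and counts were summed per library and gate. The test was edgeR's quasi-likelihood test (version 4.0.16 under R 4.3.3, TMM scaling, filterByExpr) with the library as a block, since both gates lie in the same library. Standard errors (SE) were taken as log2 fold change divided by the square root of F. P-values were adjusted by Benjamini-Hochberg over all tested genes, without the gate genes, with a call below 0.05. The cells, lists and tests were chosen with earlier results of these data known. Named genes have a symbol, at least 50 CPM in the higher gate, a call and the same direction in both libraries, and are the 15 largest per direction (10 against CXCL14 and CXCL12 fibroblasts). Between menisci they have at least 100 CPM and 50 UMIs and are the 10 largest ratios, and from each list up to 4 genes of lowest p and a fixed list were added. Other list genes given in the text passed the test or are examples picked after their values were seen, and some genes that the rule names are not reported here. Scrublet called 1 medial and 131 lateral red barcodes (0.0147% and 2.29%), so no doublets were removed in the main analysis, and the highest scores at the expected rate were left out as an alternative. On simulated counts with the dispersion trend of these libraries, the test against other fibroblasts recovered 37 of 98 genes with 2-fold and 80 of 97 with 4-fold changes. It made 5 false calls among 8629 genes. The test against CXCL14 and CXCL12 fibroblasts recovered 40 of 94 and 79 of 92, with 3 false calls among 6937 genes. The simulated libraries had the same gene levels and no spread between genes beyond that trend. These false calls therefore do not measure the error in the real counts. Alternatives were DESeq2 1.42.0, other scalings, no filter, no block, thinned cells, other gates and doublet removal. The p-values describe these libraries only.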

Additional observations from a re-analysis of the deposited data

Results flagged for a closer look

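In the white zone libraries, which held no PI16 and MFAP5 fibroblast, some transcripts of their genes were seen above the limit of 3 counts. The medial white library held 5 MFAP5, 46 SFRP4 and 13 SFRP2 UMIs, and the lateral white library 31 SFRP4 and 96 SFRP2 UMIs, among 14902274 and 13719381 UMIs in all. Against CXCL14 and CXCL12 fibroblasts, 2 genes passed the test with opposite directions in the libraries, and the difference between libraries was not tested. CFD (complement factor D) had a log2 fold change of -1.29 in the medial and 0.52 in the lateral red library, and CLEC3B (tetranectin) -0.02 and 0.73.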

How the results depend on the processing

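The number of PI16 and MFAP5 fibroblasts followed the gate, at 0 in both white libraries throughout. In the medial and lateral red libraries it was 820 and 163 at 2 or more UMIs, 379 and 71 at 5 or more, 825 and 239 without the need for PI16, 278 and 58 after thinning to 1000 UMIs, and 706 medial without the limits on vascular, mural and C1Q genes. Calls against other fibroblasts numbered 145 with DESeq2, 227 without TMM, 539 without the filter and 623 without the highest Scrublet scores, against 356; 264 passed with no library block. Calls against CXCL14 and CXCL12 fibroblasts numbered 197 with DESeq2, 501 with no library block, 391 after thinning and 779 without mural barcodes, against 1302; the cause was not tested. Genes 2-fold apart between medial and lateral cells numbered 102 after thinning, where 1886 genes had enough UMIs, and 747 at 20 or more UMIs, where 6635 did. Leaving out a library leaves no residual degree of freedom, so counts of calls have no such value; without the medial or the lateral library the log2 fold change was 0.52 or -1.29 for CFD and 0.73 or -0.0199 for CLEC3B. Without the barcodes of cartilage genes, the folds against other fibroblasts turned for COL1A2 (0.0245), PLOD2 (0.13), PRELP (0.12), FMOD (0.0785), FRZB (0.43), SEMA3D (0.58), THBS1 (0.0789), SEMA3C (0.59), CXCL12 (-0.77), ACAN (1.27) and COMP (0.68). Without mural barcodes, TAGLN (1.19) turned against CXCL14 and CXCL12 fibroblasts. With 120 lateral cells, levels under about 10 CPM rest on 3 or fewer UMIs.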
